A study of Mus musculus with 12 samples.

Results

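Akr1c18 and Akr1cl are aldo-keto reductase genes of the mouse, described here over the estrous cycle in the oviduct. They were taken as every probe annotated with either symbol, and both genes had been selected on these same values, so their levels and differences are given as a description without a test. The selection held 2 of the 16593 named genes on the array and 3 of its 25697 probes, 1 for Akr1c18 and 2 for Akr1cl. Oviducts of ICR mice, an outbred stock, came from females 6 weeks old in 4 stages of the cycle, proestrus, estrus, metestrus and diestrus. Each stage has 3 arrays, 12 in all. No allele or agent is named for any group, and all groups share the strain, the age and the tissue. Biotin-labelled cRNA made from total RNA was read on 1-colour Illumina bead arrays, which give each probe a brightness with a detection p-value. The labels number the arrays 1 to 3 within each stage and do not say whether these were separate animals, pools or repeated hybridisations, so the errors and p-values cover no more than array-to-array spread.

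Aldo-keto reductases are soluble enzymes that reduce carbonyl groups with NADPH. Akr1c18 encodes the mouse 20α-hydroxysteroid dehydrogenase, which reduces progesterone to 20α-dihydroprogesterone, a steroid that binds the progesterone receptor poorly, and it is best known from the corpus luteum, where it appears as luteal progesterone declines. In the ovary prolactin acting through STAT5 keeps the gene low, and prostaglandin F2α acting through its receptor raises it. Akr1cl is named for its likeness to the Akr1c genes, and no steroid is assigned to it here. The arrays measured RNA, and neither enzyme activity nor progesterone was measured.

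The promoters are shown because the stage patterns below are differences in RNA, and they allow the letters upstream of the 2 genes to be compared. Each runs from 250 bases before to 50 bases after the annotated start, is taken from RefSeq (GRCm38.p6) and lies on the minus strand, at chr13:4150597-4150896 for Akr1c18 and chr1:65032710-65033009 for Akr1cl. Capitals mark the motifs found among 6 that were searched on both strands.
Akr1c18: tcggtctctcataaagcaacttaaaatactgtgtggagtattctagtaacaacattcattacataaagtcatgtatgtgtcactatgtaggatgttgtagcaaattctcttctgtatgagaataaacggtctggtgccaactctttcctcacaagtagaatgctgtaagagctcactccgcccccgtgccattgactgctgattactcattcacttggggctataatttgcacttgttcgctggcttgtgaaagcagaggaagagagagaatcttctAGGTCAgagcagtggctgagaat
Akr1cl: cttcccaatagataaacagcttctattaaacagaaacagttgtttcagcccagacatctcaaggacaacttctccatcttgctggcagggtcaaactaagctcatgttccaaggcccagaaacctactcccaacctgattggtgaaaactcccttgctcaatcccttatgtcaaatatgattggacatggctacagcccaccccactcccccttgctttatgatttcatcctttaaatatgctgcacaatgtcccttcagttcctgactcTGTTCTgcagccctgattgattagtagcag
The capitals in Akr1c18 are the nuclear receptor half-site AGGTCA, which starts 27 bases past the annotated start and which 16.3% of 32851 mouse promoters of this length hold. In Akr1cl they are the half-site AGAACA of the progesterone and glucocorticoid receptor class, read on the opposite strand as TGTTCT, 20 bases past the start, which 19% of the promoters hold. The other 4 motifs were in neither window. They were CAAGGTCA, bound by NR5A factors and held by 1.56% of the promoters, TTCNNNGAA for STAT5 (8.3%), TGACTCA for AP-1 (5.2%) and TGACG, the cyclic AMP response half-site (20.8%). CAAGGTCA contains AGGTCA, so the 2 searches overlap. A match to such short letters describes the window only.

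By the RefSeq gene order of the same build, Akr1c18 lies on chromosome 13 in a run of related genes, between Akr1c14 and Akr1c13, followed by Akr1c19, Akr1c12, Akr1c6, Akr1c20, Akr1c21 and Akr1e1. Akr1cl lies apart from them on chromosome 1, between Plekhm3 and Cryge. The genes of the chromosome 13 run are alike in sequence, and cross-hybridisation between their probes was not tested.

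Replicate 1 gave the brighter 4 arrays of the 12. Their median raw intensity was 139 to 156, against 99.3 to 105 for replicates 2 and 3, and 55.6% to 58.1% of their probes were detected, against 48.6% to 51.8%. Levels below are therefore on a log2 scale after background correction and quantile normalization, and 1 log2 unit is a doubling. Every error given as SE is the standard error of the stage difference on that scale, with n = 3 arrays per stage. After a detection filter 10144 genes were tested. Oviduct markers were bright at every stage: the oviduct glycoprotein gene Ovgp1 ranged from 14.80 to 15.78 in log2 intensity. The 7 tested epithelial markers held no gene that passed the test across the cycle (limma moderated F, 0 at an adjusted p under 0.05 and 0 at an unadjusted p under 0.05, beside 5.37% of all genes at the adjusted p).

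Akr1c18 was low at proestrus, at its highest at estrus, lower at metestrus and almost back at its starting level at diestrus. Raw intensity was 277, 156 and 149 on the 3 proestrus arrays, 3647, 1303 and 1405 at estrus, 800, 450 and 465 at metestrus, and 329, 157 and 206 at diestrus, where the first value of each stage is the brighter replicate 1. On the log2 scale the levels were 7.05, 6.96 and 6.97 at proestrus, 11.16, 10.69 and 10.85 at estrus, 9.02, 8.99 and 9.10 at metestrus, and 7.38, 7.11 and 7.53 at diestrus. The probe was detected on all 12 arrays, and after normalization no array of one stage overlapped any array of another.

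Stage means of Akr1c18 were 7.0 ± 0.05 in proestrus, 10.90 ± 0.24 in estrus, 9.04 ± 0.06 in metestrus and 7.34 ± 0.21 in diestrus (SD, n = 3 each). Estrus exceeded proestrus by 3.90 (SE 0.15), 15.0-fold, the largest difference of any tested gene in that comparison. The difference was 4.11, 3.72 and 3.88 for replicates 1, 2 and 3. Metestrus, at 9.04 against 10.90 at estrus, was lower by 3.63-fold (log2 difference -1.86, SE 0.15), and it was still 4.12-fold above proestrus (2.04, SE 0.15). By replicate this excess over proestrus was 1.97, 2.02 and 2.13, and the metestrus arrays lay closer together (SD 0.06) than the estrus arrays (SD 0.24).

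Diestrus was 3.25-fold lower than metestrus for Akr1c18 (log2 difference -1.70, SE 0.15), the second largest difference of 10144 genes between those stages. The closest neighbours in its order of levels were diestrus and proestrus. The diestrus arrays, from 7.11 to 7.53, lay above the proestrus arrays, from 6.96 to 7.05, by a mean of 0.34 (SE 0.15, 1.27-fold), which ranked 2386 among the genes. The smallest replicate difference was 0.15 and the largest 0.56. The order estrus, metestrus, diestrus, proestrus held in all 3 replicates, an order that 8 of the 10144 genes showed in all 3 (0.0789%). The spread between arrays of one stage, a residual SD of 0.16, was below the median of all genes, 0.24.

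Akr1cl, read by its brighter probe, also stood highest at estrus but had returned below its proestrus level by metestrus. Raw intensity was 1021, 578 and 521 at proestrus, 5186, 2334 and 2537 at estrus, 578, 385 and 378 at metestrus, and 573, 286 and 379 at diestrus. In log2 these became 9.29, 9.37 and 9.30 at proestrus, 11.70, 11.53 and 11.69 at estrus, 8.47, 8.74 and 8.76 at metestrus, and 8.33, 8.36 and 8.63 at diestrus. All 12 arrays detected this probe, the estrus arrays lay above all others, the proestrus arrays came next, and metestrus and diestrus overlapped.

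Mean levels of this Akr1cl probe were 9.32 ± 0.05 in proestrus, 11.64 ± 0.10 in estrus, 8.66 ± 0.16 in metestrus and 8.44 ± 0.17 in diestrus (SD, n = 3 each). Estrus was 5.0-fold above proestrus (log2 difference 2.32, SE 0.13), with 2.42, 2.16 and 2.39 in replicates 1, 2 and 3. Metestrus was 7.92-fold below estrus (-2.99, SE 0.13), a larger step than the step into estrus. Metestrus was also 1.59-fold below proestrus (-0.67, SE 0.13), in 3 of 3 replicates. Diestrus differed from metestrus by -0.22 (SE 0.13), and these stages were not separated beyond their spread. Diestrus was 1.84-fold below proestrus (-0.88, SE 0.13). The order estrus, proestrus, metestrus, diestrus held in all 3 replicates, as it did for 15 of the 10144 genes (0.148%).

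The dimmer Akr1cl probe was detected only on the 3 estrus arrays. Its raw intensity was 102, 93.5 and 93.9 at proestrus, 252, 138 and 128 at estrus, 89.7, 80.6 and 82.8 at metestrus, and 89.3, 74.2 and 78.9 at diestrus. Its detection p was at least 0.0451 on every array outside estrus and is listed as 0 on the estrus arrays. It passed the filter, detection on at least 3 arrays, through estrus alone, so a difference involving estrus was built into its passing. Set against the lowest detected level on the other arrays, its estrus level was at least 2.05-fold above proestrus (measured log2 means 6.67 at estrus and 5.15 at proestrus) and at least 2.31-fold above diestrus (6.67 and 4.56). Metestrus was at least 2.18-fold below estrus (4.69 at metestrus and 6.67 at estrus). Between the stages where it was undetected no fold is given. The 2 probes thus ran the same way into and out of estrus, and how the annotated transcripts differ between them is not analysed here.

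**Figure D1:**
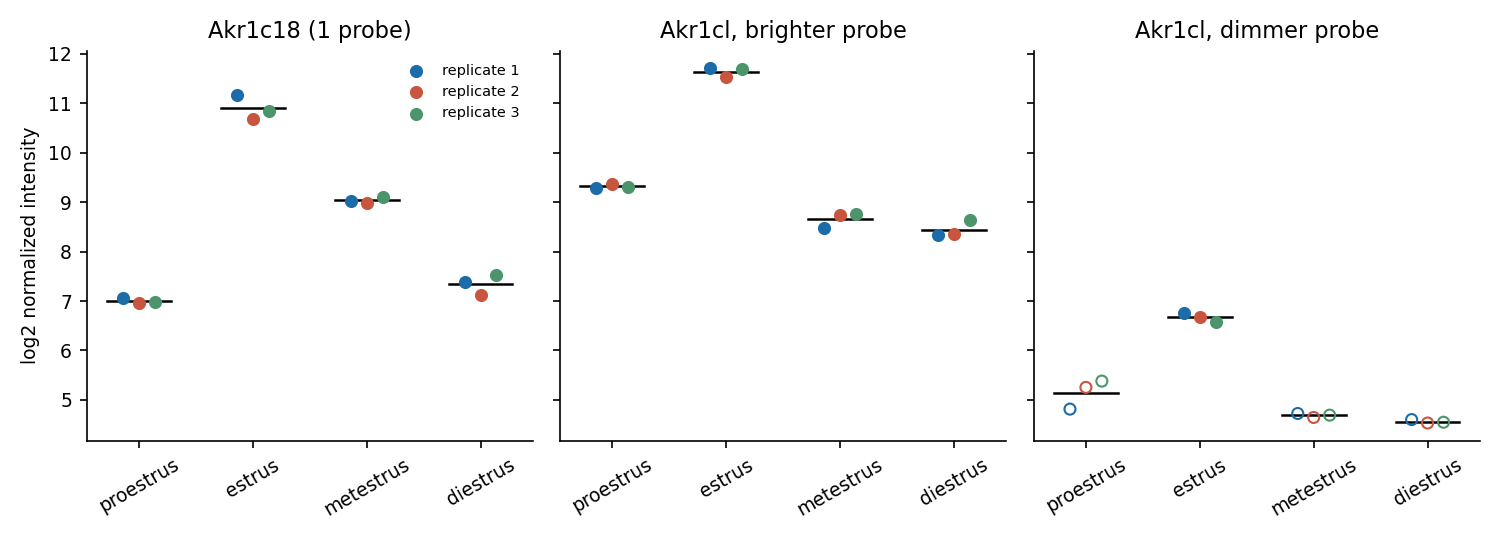
Log2 normalized intensity of each Akr1c18 and Akr1cl probe (vertical axis) by estrous stage, 1 point per array, coloured by replicate number, with the stage mean as a bar and open points where the probe was not detected. All 3 probes stand highest on the 3 estrus arrays, and the Akr1c18 probe at metestrus stays near 9.04 while the brighter Akr1cl probe at metestrus lies at 8.66, under its proestrus mean of 9.32.

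The genes therefore differed both in the step into estrus and in the step out of it. Estrus stood 3.90 above proestrus for Akr1c18 and 2.32 above it for Akr1cl. Metestrus differed from estrus by -1.86 for Akr1c18 and by -2.99 for Akr1cl. Metestrus stood 2.04 above proestrus in log2 for Akr1c18 and 0.67 below it for Akr1cl, and each direction held in 3 of 3 replicates. From metestrus to diestrus Akr1c18 had the larger fall. Diestrus differed from metestrus by -1.70 for Akr1c18 and by -0.22 for Akr1cl. These are differences within each probe, and the brightness of one probe says nothing of the other gene's abundance. In whole oviducts, fewer cells of a type and less RNA per cell cannot be told apart.

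Markers of ovarian cells and oocytes were also highest at estrus. Of 16 listed genes of granulosa, theca and luteal cells, 14 were on the array and 11 were tested, and 10 of the 11 changed over the cycle (limma moderated F, adjusted p under 0.05), where 5.37% of all genes did. Hsd3b1 and Fshr were detected only on the estrus arrays, and Star elsewhere on 1 metestrus and 1 diestrus array. All of these passed the 3-array filter only through estrus, so their difference was partly built into the counts of this list. At estrus against proestrus 6 of the 11 rose, where 0.858% of all genes did, with a median log2 difference of 1.21 over the 11 and 0.00 over all genes. Inha, the inhibin alpha subunit made by granulosa cells, was 1.81 higher (SE 0.20, adjusted p = 0.00062), with means of 10.06 at estrus and 8.24 at proestrus. The summed normalized intensity of the 11 genes was 2119 to 2273 at proestrus, 3657 to 4097 at estrus, 1005 to 1062 at metestrus and 1074 to 1143 at diestrus. At estrus, 4 genes of this list were undetected on all 3 arrays, Amh, Foxl2, Insl3 and Nr5a1. Of 12 oocyte genes, 11 were on the array and 8 were tested, and 7 changed over the cycle. All 7 rose at estrus, with a median of 2.32 over the 8, among them the oocyte growth factor genes Gdf9 (2.38, SE 0.33, adjusted p = 0.0037) and Bmp15, undetected at proestrus, at least 2.37-fold (adjusted p = 5.5e-05). Bmp15 and Oosp1 were each detected outside estrus on 2 diestrus arrays alone, so both passed the filter only through estrus. Their rise was therefore partly built into the count and the median. Summed oocyte intensity was 328 to 544 at proestrus, 1714 to 2225 at estrus, 363 to 603 at metestrus and 647 to 997 at diestrus, and Zp1 and Zp2 were undetected at every stage. Leaving out estrus replicate 2 or 3 took the ovarian gene Fshr out of the calls (adjusted p = 0.064 and 0.065, against 0.014), and proestrus replicate 2 did so for Inhbb (0.053, against 0.011).

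These marker levels moved with both reductases from proestrus to estrus, and their part in that difference was not tested. The 3 estrus arrays can be read side by side. Akr1c18 was at 11.16, 10.69 and 10.85 on replicates 1, 2 and 3, where the ovarian sum was 3657, 3888 and 4097 and the oocyte sum 1714, 2225 and 2224. At estrus Akr1c18 was highest on replicate 1, one of the brighter arrays, where both sums were lowest. At proestrus its order over the 3 arrays was the reverse of that of the ovarian sum, at metestrus both had the same order, and at diestrus both were highest on replicate 3. Between stage means, metestrus set Akr1c18 apart from most of the ovarian list. It stood 2.04 above proestrus while 8 of the 11 ovarian genes lay below proestrus, with a range of -2.28 to 0.58 and a median of -0.82, and 6 of them fell (2.43% of all genes fell). No ovarian gene of the list was as far above proestrus as Akr1c18. The highest were the cholesterol transport gene Star at 0.58 (adjusted p = 0.18, and 0.083 with the replicate block) and the side-chain cleavage gene Cyp11a1 at 0.47 (adjusted p = 0.069, and 0.021 with the replicate block). The list pools granulosa, theca and luteal genes, so its count and median stand for none of these cell types alone. The part of luteal RNA in the metestrus level of Akr1c18 was not tested. Oocyte genes at metestrus lay between -0.20 and 0.64 relative to proestrus. Akr1cl at metestrus, at -0.67, lay within the range of the ovarian list. Fat cell genes also moved at estrus, where Adipoq rose by 0.92 (SE 0.16, adjusted p = 0.018) and Cidec by 0.88 (SE 0.13, adjusted p = 0.0058), 2 of 4 tested. The F call of Adipoq, at 0.022, was lost without any 1 estrus array or without proestrus replicate 2 or 3 (adjusted p from 0.054 to 0.11). The part of fat in the results was not tested.

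**Figure D2:**
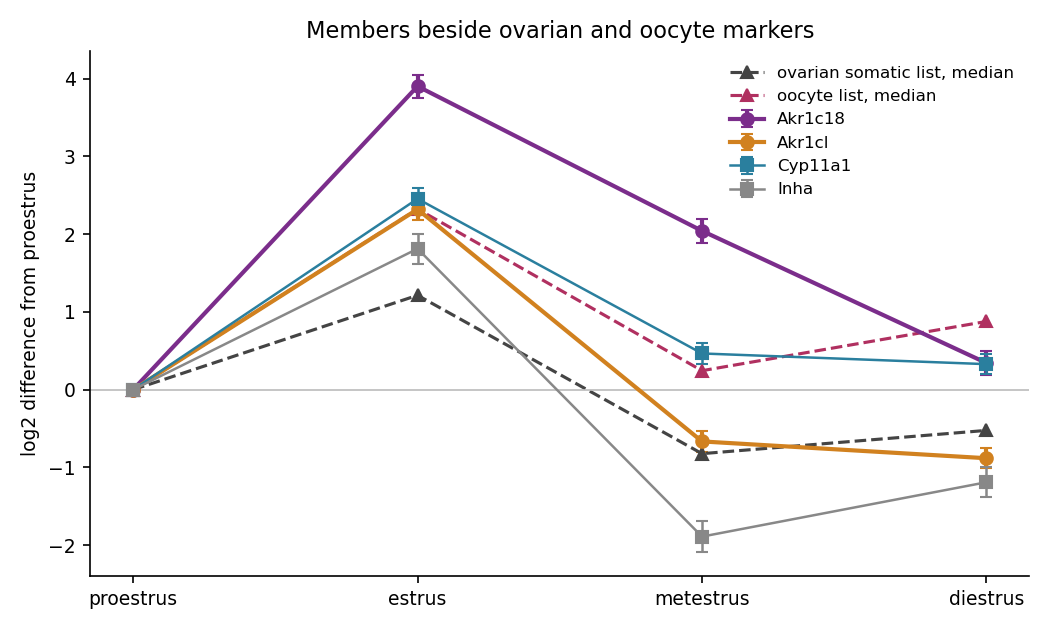
Log2 difference of each stage from proestrus (vertical axis) for Akr1c18, the brighter Akr1cl probe, Cyp11a1 and Inha with SE bars, and for the medians of the 11 ovarian and 8 oocyte genes as dashed lines. At metestrus Akr1c18 stands at 2.04 while the ovarian median lies at -0.82 and Akr1cl at -0.67.

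Among the other aldo-keto reductases, 15 were listed, 12 were on the array and 8 were tested, and none passed the test across the cycle (limma moderated F, 0 at an adjusted p under 0.05 and 0 at an unadjusted p under 0.05, beside 5.37% of all genes at the adjusted p). With 8 genes, a count of 0 does not set the family apart from that share. Akr1c12, in the chromosome 13 run with Akr1c18, ranged from 8.88 to 9.88 over the 12 arrays, and its largest difference between stage means was 0.32. Akr1e1, at the end of that run, had a largest difference of 0.25. The aldehyde reductase gene Akr1a1 stayed between 13.31 and 13.79, with a largest difference of 0.14, and Akr7a5, Akr1b10 and Akr1b8 had largest differences of 0.13, 0.22 and 0.43. Akr1c6, Akr1c20, Akr1c21 and Akr1d1 were detected on 0 arrays, with raw intensities of 62.8 to 92.1, so their levels have only a bound here. Akr1b3, Akr1b7 and Akr1c13 had no probe used here.

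Akr1c14 and Akr1c19, on either side of Akr1c18 in the run, depended on how the replicates were handled. Akr1c14, the mouse 3α-hydroxysteroid dehydrogenase, which acts on 5-reduced progesterone and androgens, averaged 8.26 on replicate 1 arrays and 6.59 on the others, a gap larger than any of its stage differences (limma, adjusted p = 0.98 by the F test). With the replicate number as a block its adjusted p by the F test was 0.017, and in replicates 2 and 3 alone it was 0.066, which does not pass. Estrus was then at -0.70 and metestrus at -0.85 relative to proestrus (SE 0.17 each), with metestrus below proestrus in 3 of 3 replicates. Its second probe gave -0.81 and -0.74. Akr1c19 had an adjusted p of 0.58 by the F test without the block and 0.0039 with it, and 0.041 in replicates 2 and 3 alone. Over all 10144 tested genes, 1659 passed with the block and 1082 in replicates 2 and 3 alone, so such calls were common. In the blocked fit Akr1c19 stood above proestrus by 0.42 at estrus, 0.52 at metestrus and 0.71 at diestrus (SE 0.10), a smaller change than that of Akr1c18 and with its highest mean at diestrus, where Akr1c18 was nearly back at its proestrus level.

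Of 23 listed genes that make, convert or remove progesterone and its products, 19 were on the array and 14 were tested, and 10 changed across the cycle (limma moderated F, adjusted p under 0.05, beside 5.37% of all genes). At estrus against proestrus 4 of the 14 rose (4 at an unadjusted p under 0.05; 0.858% of all genes rose) and 0 fell (2 unadjusted; 0.158% of all genes fell). The 4 were the progesterone-forming genes Star, Cyp11a1 and Hsd3b1 and the estradiol-forming Hsd17b1, all of which also stand on the ovarian marker list above, and the part of ovarian RNA in their rise was not tested. Cyp11a1, which cleaves the cholesterol side chain, lay at 8.70 to 8.73 on the estrus arrays, against 6.16 to 6.33 on the proestrus arrays, a difference of 2.46 (SE 0.13, adjusted p = 1.6e-06). Hsd17b1 was 1.69 higher (SE 0.28, adjusted p = 0.01). Star and Hsd3b1, undetected at proestrus, were at least 1.28-fold and at least 1.14-fold higher (adjusted p = 0.016 and 0.00045). Hsd3b1 was detected only on the estrus arrays, and Star elsewhere on 1 metestrus and 1 diestrus array. Both passed the filter only through estrus, so their rise and their place in these counts were partly built in.

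At metestrus against estrus, 6 of the 14 fell (9 unadjusted), where 1.77% of all genes did, and 0 rose (0 unadjusted; 0.69% of all genes rose). Hsd17b1 showed the largest of these differences, -3.67 (SE 0.28, adjusted p = 1.7e-05), and Cyp11a1 stood at -1.99 (SE 0.13, adjusted p = 6.5e-06). Cyp17a1, which turns progesterone toward androgens, was at -1.39 (SE 0.27, adjusted p = 0.016). Hsd17b2, whose human counterpart oxidises 20α-dihydroprogesterone back to progesterone, lay between 6.22 and 6.53 at estrus and between 6.06 and 6.49 at proestrus, and it was 0.96 lower at metestrus than at estrus (SE 0.18, adjusted p = 0.012). Hsd17b2 was detected on 1 of the 3 metestrus arrays (mean 5.43), so its level there lay near background. Akr1c18 was at -1.86 for metestrus against estrus.

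Relative to proestrus, 6 of the 14 were lower at metestrus (7 unadjusted; 2.43% of all genes were lower) and 0 were higher (2 unadjusted; 2.91% of all genes were higher), whereas Akr1c18 was at 2.04. The 6 were Cyp17a1 (-1.60, SE 0.27, adjusted p = 0.0047), Hsd17b1 (-1.98, SE 0.28, adjusted p = 0.0014), Hsd17b2 (-0.90, SE 0.18, adjusted p = 0.011), Srd5a3 (-0.48, adjusted p = 0.02), Hsd11b1 (-0.60, adjusted p = 0.012) and Hsd11b2 (-1.53, SE 0.29, adjusted p = 0.011). Hsd11b1 and Hsd11b2 activate and inactivate glucocorticoid. With the replicate block, Akr1c14 (-0.85, adjusted p = 0.0072, against 0.60) and Hsd17b7 (-0.60, adjusted p = 0.0023, against 0.06) were called lower as well, and Cyp11a1 was called higher (0.47, adjusted p = 0.021, against 0.069). Srd5a3, though named a steroid 5α-reductase, is known mainly for making dolichol for protein glycosylation. From metestrus to diestrus, Hsd17b7, which also acts in cholesterol synthesis, was higher (1.22, SE 0.17, adjusted p = 0.021; 0.0394% of all genes rose there), and no gene of this list was lower in that step (0 unadjusted; 0.0296% of all genes fell), where Akr1c18 was at -1.70. Leaving out proestrus replicate 1, 2 or 3 or estrus replicate 1, 2 or 3 took Star out of the F calls (adjusted p from 0.06 to 0.10, against 0.025). Srd5a3 was lost without any 1 proestrus array or without estrus or diestrus replicate 2 (0.051 to 0.10, against 0.021), and with the mean of its probes (0.33). Hsd11b1 was lost without proestrus replicate 2 or 3 (0.066 and 0.053, against 0.017).

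**Figure D3:**
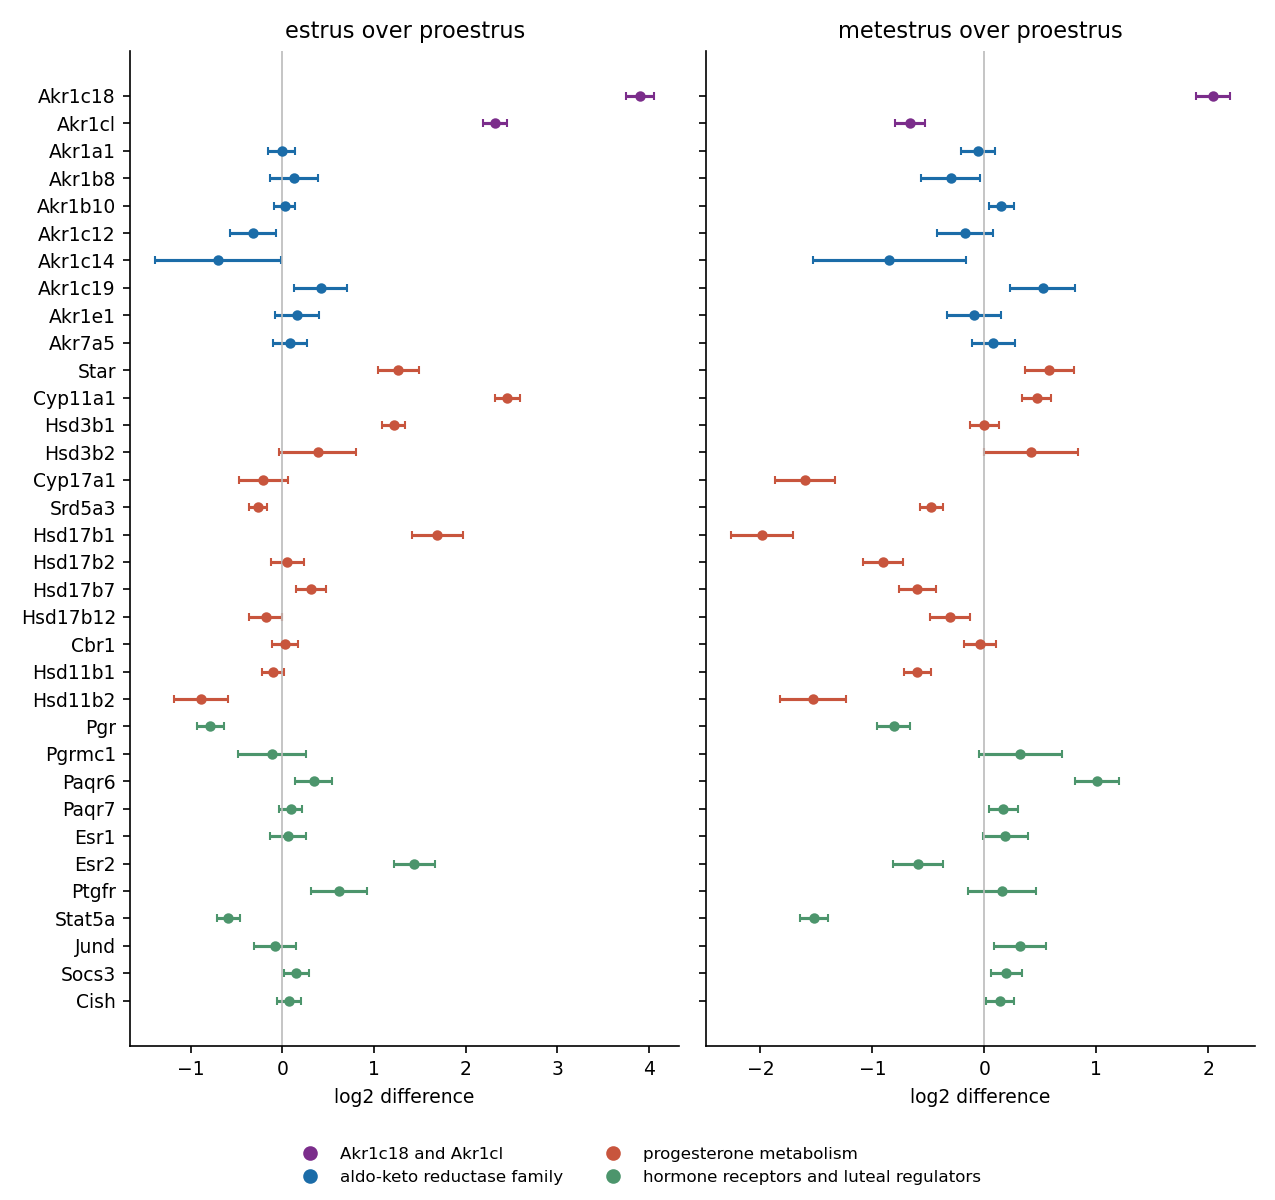
Log2 differences with SE for Akr1c18, the brighter Akr1cl probe and the tested genes of the reductase family, of progesterone metabolism and of hormone receptors and luteal regulators, with estrus over proestrus on the left and metestrus over proestrus on the right (horizontal axes). Akr1c18 is farthest right in both panels, at 3.90 and 2.04, and Akr1cl passes from 2.32 to the negative side at -0.67.

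Receptors and regulators tied to these enzymes were then read. Of 19 listed, 15 were on the array and 11 were tested, and 4 changed across the cycle (limma moderated F, adjusted p under 0.05, beside 5.37% of all genes). At estrus against proestrus 1 rose (0.858% of all genes did) and 1 fell (0.158%). At metestrus against estrus 2 fell (1.77%). At metestrus 1 was higher (2.91%) and 2 were lower (2.43%) than at proestrus. The progesterone receptor gene Pgr lay at 7.72 to 7.95 on the estrus arrays, against 8.46 to 8.71 on the proestrus arrays, a fall where Akr1c18 was at its highest (-0.78, SE 0.14, adjusted p = 0.023). It was 0.81 lower at metestrus than at proestrus (SE 0.14, adjusted p = 0.0068). The lowest Pgr mean, 7.35, was at diestrus (-1.23 relative to proestrus, SE 0.14, adjusted p = 0.0005), where Akr1c18 was at 0.34. Stat5a, which carries the prolactin signal, was at 8.32 to 8.59 on the metestrus arrays, against 9.92 to 10.02 on the proestrus arrays (-1.52, SE 0.13, adjusted p = 4.5e-05), and its second probe gave -0.85. Over the same pair of stages Akr1c18 was at 2.04 and Akr1cl at -0.67. At diestrus Stat5a was still at -1.43 relative to proestrus (SE 0.13, adjusted p = 7.6e-05), where Akr1c18 was at 0.34. At estrus, where Akr1c18 was at 3.90, Stat5a was at -0.59 (SE 0.13, adjusted p = 0.055). A link between these genes was not tested. The beta estrogen receptor gene Esr2 was 1.44 higher at estrus (SE 0.22, adjusted p = 0.0066) and, undetected at metestrus, at least 2.52-fold lower there than at estrus (adjusted p = 0.00029). Esr2 was detected on 1 of the 3 proestrus arrays (mean 5.44), so its proestrus level lay near background. Without the estrus arrays Esr2 would not have passed the filter. Its rise at estrus, its fall at metestrus and its place in these counts were therefore partly built in. Against proestrus, Esr2 at metestrus passed only with the replicate block (adjusted p = 0.038, against 0.17). Paqr6, a membrane progesterone receptor gene, was 1.01 higher at metestrus than at proestrus (SE 0.20, adjusted p = 0.012). That F call, at 0.035, was lost without any 1 proestrus array, without metestrus replicate 1 or 3, without estrus replicate 2 or 3 and without diestrus replicate 2 (0.051 to 0.11).

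Ptgfr, the prostaglandin F2α receptor gene, was near background, detected on 1 array at each stage, and no difference was detectable (limma F test, adjusted p = 0.75). Esr1 ranged from 10.88 to 11.75 over the 12 arrays (limma F test, adjusted p = 1). Cish and Socs3, targets of cytokine signals, did not pass (limma F test, adjusted p = 0.33 and 0.62). Nr4a1 and Stat5b were detected on 0 arrays. Prlr, Lhcgr, Srd5a1, Srd5a2, Cyp19a1, Pgrmc2, Paqr5 and Fdxr had no probe used here. Leaving out estrus replicate 2 or estrus replicate 3 brought the called genes of these lists at estrus against proestrus to 3, against 6 with all arrays, and at metestrus against estrus to 5, against 8.

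The genes whose levels ran most like each reductase were then looked for. The measure was Pearson's r over the 12 arrays, after centring each replicate number, among the 348 tested genes whose stage means spanned at least 1 log2 unit. The 12 points share 4 stages and 3 replicate sets, so the values are descriptions. For Akr1c18 the 5 highest were Clstn3, a calsyntenin (0.97), the efflux pump gene Abcb1b (0.95), the leukotriene hydroxylase gene Cyp4f18 (0.93), the pantothenate kinase gene Pank1 (0.93) and Cyp11a1 (0.92). For Akr1cl they were Mgarp, a mitochondrial protein gene (0.996), the beta-defensin gene Defb19 (0.977), the matrix gene Tnc (0.976), the chromatin remodelling gene Smarca1 (0.976) and Esr2 (0.975). Defb19 was undetected at proestrus, metestrus and diestrus and entered through estrus alone, so a peak at estrus was built into its r. Esr2, detected outside estrus on 1 proestrus array alone, also passed the filter only through estrus, so the same holds for its r. Esr2 was undetected at metestrus and diestrus and Clstn3 at proestrus, where their levels have only a bound. No gene was in both groups, but each names only 5 of the 348, so this does not set the 2 reductases apart. The r between Akr1c18 and Akr1cl was 0.78. Of the 5 for Akr1c18, Cyp4f18 was closest to its estrus level at metestrus, with means of 8.29 at estrus, 8.08 at metestrus and 6.53 at proestrus. Mgarp, with means of 8.23 in proestrus, 11.13 in estrus, 7.53 in metestrus and 7.38 in diestrus, had the same order of stage means as Akr1cl. Without the centring, 3 of the 5 for Akr1c18 and 2 of the 5 for Akr1cl were still among the first 5. Pank1 then ranked 33 and Tnc 52, and neither passed the F test (limma, adjusted p = 0.072 and 0.06).

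**Figure D4:**
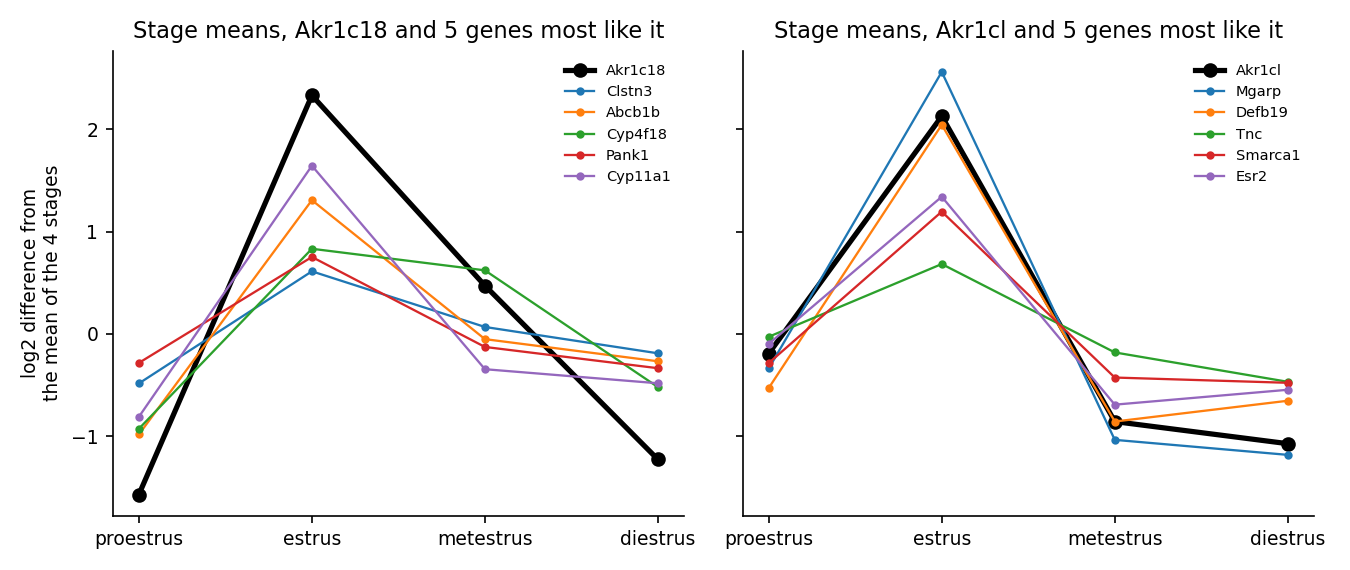
Stage means as log2 differences from the mean of the 4 stages (vertical axis) for Akr1c18 and its 5 most alike genes on the left and for the brighter Akr1cl probe and its 5 on the right. On the left the metestrus points spread between estrus and proestrus levels, and on the right all 6 genes drop from estrus to metestrus.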

How the data were processed

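Per the labels, total RNA of oviducts was column-purified with DNase treatment and made into biotin-labelled cRNA. The authors deposited a raw intensity for each probe and array, with a detection p-value per probe and array per the file headers, and a second table of intensity values that, judged from its values, was background-subtracted and quantile normalized on a linear scale. There, 21.2% to 24.9% of values per array are negative, and medians are 46.7 to 46.8 for replicate 1 and 23.4 for replicates 2 and 3, so those sets appear to have been normalized apart. The software behind both was not given in the sources used here. Both tables rank probes alike (rank correlation at least 0.971), and neither is centred per gene.

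From the deposited raw intensities, log2 values were made with neqc of limma 3.58.1 in R 4.3.3, that is normexp with the detection p marking background, an offset of 16 and quantile normalization. Probes with a detection p under 0.01 on at least 3 of 12 arrays were kept, 14778 in all. Symbols came from the platform annotation, where 23978 probes had 1 symbol and 1719 none. The probe with the highest mean stood for each of the 2717 genes with several, which left 10144 genes. A probe undetected on all 3 arrays of a stage has a bound there, and the difference is then given as "at least" a fold against the lowest detected level of each array. No 2 arrays held identical values.

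A limma model with 1 mean per stage was fitted to all 12 arrays without a block (8 residual degrees of freedom) and moderated with eBayes. P-values were adjusted by Benjamini-Hochberg over all 10144 genes within each comparison, with a threshold of 0.05. The fit was tested on simulated data. After stage means were removed, arrays of the same replicate number correlated at 0.62 to 0.81 for number 1, 0.26 to 0.51 for number 2 and 0.36 to 0.55 for number 3. Numbers 2 and 3 correlated with each other at 0.22 to 0.54. Number 1 thus formed a set of its own, and pairing by number was not shown for 2 and 3. Differences by replicate subtract arrays of the same number, and the replicate block was run as an alternative only. Akr1c18 and Akr1cl and the gene lists were chosen with earlier results of these data known. Named genes are every probe of both, every tested aldo-keto reductase, up to 6 called genes of each other list or else the 2 of lowest p, the 5 genes most like each member, and a few fixed pathway genes. Star, Srd5a3, Hsd11b1, Hsd11b2, Fshr, Inhbb and the receptors that did not pass are named outside this rule, after their values were seen. Promoters and gene order are from RefSeq tables of GRCm38.p6. Alternatives were other background, normalization, filter, probe and offset choices, the deposited values with a floor of 16, a replicate block, replicates 2 and 3 alone and each array left out.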

Additional observations from a re-analysis of the deposited data

How the results depend on the processing

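No member difference changed direction under any alternative. With the deposited values, the Akr1c18 log2 differences were 4.42 for estrus over proestrus, 2.46 for metestrus over proestrus and -1.90 for diestrus over metestrus. They were 3.34, 1.60 and -1.36 with no background correction, and 3.59, 1.79 and -1.51 with an offset of 50. For Akr1cl, estrus over proestrus was 1.92 with the mean of its kept probes, and metestrus over estrus was -2.48 with that mean, -3.16 with the deposited values and -2.81 with no background correction. Leaving out each array gave 3.77 to 4.01 for Akr1c18 at estrus over proestrus and 2.29 to 2.38 for Akr1cl. The replicate block cannot move a stage difference in this balanced layout (3.90 and 2.32 at estrus over proestrus). With it, the reductase family had 2 called genes (1 in replicates 2 and 3 alone), the 3 lists together had 14 at metestrus over proestrus, against 9, and Zp3 was also called (adjusted p = 0.0048). Otherwise the block changed no F call of a list gene named in the report, and it was not run for the genes named for their likeness. Over all genes, 545 changed, against 1659 with the block, 1082 in replicates 2 and 3 alone, 66 with the deposited values and 345 to 664 with 1 array left out, lowest without proestrus replicate 2 (345) and 3 (351). With the deposited values the called genes were 3 of progesterone metabolism, 1 of receptors and, by pair, 3 at estrus over proestrus, 4 at metestrus over estrus and 2 at metestrus over proestrus. With detection required on all 12 arrays they were 5 of progesterone metabolism, 2 of receptors, 8 ovarian and oocyte genes (against 17) and 5 at metestrus over estrus. With 1 array left out, the pair counts ran from 3 to 7 at estrus over proestrus and from 5 to 9 at metestrus over estrus. Of the 28 called list genes, 14 stayed called in each alternative that tested them, 7 of these having no test where detection on all 12 arrays was required, and 14 were lost with the deposited values, among them Pgr and Stat5a. Median scaling lost Hsd3b1 (adjusted p = 0.069), Fshr (0.18) and Adipoq (0.071), an offset of 50 lost Paqr6 (0.058), no background correction lost Star (0.056) and Paqr6 (0.088), and replicates 2 and 3 alone lost both (0.093 and 0.056). Levels near background compress fold differences, which limits the dimmer Akr1cl probe, Star, Hsd3b1, Hsd17b2, Esr2 and Ptgfr. The cause of these shifts was not tested.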
